A study of Macaca mulatta with 8 samples.

Results

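The integrated stress response (ISR) was followed through 10 of its best known transcripts, ATF3, ATF4, DDIT3, PPP1R15A, TRIB3, CHAC1, ASNS, SESN2, DDIT4 and GDF15. They were picked by gene symbol out of 35432 genes, with earlier results of the same counts known, so their values describe these cultures and test nothing. All 10 were found and all 10 passed the filter on low counts, which left 12131 genes. The cells were primary microglia, the resident macrophages of the brain, cultured from subcortical white matter of 4 adult rhesus macaques: the males R07110 (13 years) and R12016 (9 years) and the females R02046 (19 years) and R14143 (6 years). Every culture received 10 µg/mL uLPS, ultrapure lipopolysaccharide that engages TLR4, for 16 h. In the uLPS + MRS2578 condition, 5 µM MRS2578, an antagonist of the nucleotide receptor P2RY6, was added 1 h before uLPS. The cells were kept in serum and M-CSF for 8 days and were exposed at day 7, so both conditions are those of activated cultured microglia. The labels do not say whether the uLPS cultures received the solvent DMSO. The paper states that every assay using MRS2578 had DMSO controls. Cultures without uLPS were not analysed here. Each donor gave 1 RNA library per condition, 8 in all, and a donor's libraries came from the same animal.

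The ISR is the route by which cells slow translation under stress. Kinases that each sense a different stress phosphorylate the initiation factor eIF2 on its alpha subunit, which lowers general protein synthesis while letting the ATF4 mRNA be translated. ATF4 then switches on genes for amino acid supply and redox balance, further transcription factors such as DDIT3 (CHOP) and ATF3, and feedback regulators such as PPP1R15A (GADD34), which returns eIF2 to its unphosphorylated form. Transcript levels do not show the phosphorylation or translation steps, and the levels of these genes do not measure the route alone.

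ATF4 and its partners of the C/EBP family bind the C/EBP-ATF response element, searched here as TGATGNAA on both strands of the 300 bases before each RefSeq start site of the macaque genome Mmul_10. It was found before 1 or more starts of 4 of the 10 genes (ATF3, DDIT3, TRIB3 and ASNS), against 5.36% of 20782 annotated genes and 2.98% of 49243 starts. The cAMP response element TGACGTCA was found in PPP1R15A, against 2.33% of genes, and the endoplasmic reticulum stress element (CCAAT, 9 bases of any kind, CCACG) was found in none of the 10, against 0.0866% of genes. No motif shared bases with another in these windows, since the 5 genes with a match each held 1 kind. A match is only a match of letters. The sequences below show 4 of these matches, in capitals within their surroundings, 5′ to 3′ on the strand of the gene, as examples from the transcription factors (ATF3 and DDIT3), the amino acid enzymes (ASNS) and the feedback regulators (PPP1R15A) of the pathway. The ATF3 stretch printed is chr1:70097665-70097784 on the plus strand, with its match 136 bases before a start. The DDIT3 stretch is chr11:57095866-57095985 on the minus strand, with its match 111 bases before the outermost start and 239 before an inner one. The ASNS stretch chr3:108301017-108301046 and the PPP1R15A stretch chr19:48854677-48854706 are on the plus strand. Their matches fall 212 and 34 bases before an inner start and within an exon of another transcript of the same gene. Only 30 bases of each are therefore printed.
ATF3: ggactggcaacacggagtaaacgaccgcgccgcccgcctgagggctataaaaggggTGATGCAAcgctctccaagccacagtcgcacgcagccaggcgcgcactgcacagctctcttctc
DDIT3: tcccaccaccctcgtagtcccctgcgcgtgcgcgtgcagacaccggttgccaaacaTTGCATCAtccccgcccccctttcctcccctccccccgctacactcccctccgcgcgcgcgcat
ASNS: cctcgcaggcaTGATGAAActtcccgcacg
PPP1R15A: gcctctccccgTGACGTCAgcacgccaggc

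The libraries held 9231109 to 32790348 counted reads. The members' own counts ran from 44, for CHAC1 in the smallest library, to 17714, for PPP1R15A. Levels below are CPM, read counts scaled to the library size after TMM, and differences are log2 CPM of uLPS + MRS2578 minus uLPS within a donor. The conditions of donor R02046 are in doubt: in a table of CPM values published with the study, 6 of 8 columns were proportional to the library of the same label, while the 2 columns of R02046 were proportional to each other's library. Values are given with the deposited labels, and fits also with the R02046 libraries exchanged and without R02046. An exchange turns the sign of each R02046 difference and leaves the other donors as they are.

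Summed microglia markers ran from 10230 to 12580 CPM with uLPS and from 9387 to 11540 CPM with MRS2578, over the 14 of 15 markers present in the files. CSF1R, the receptor for M-CSF, averaged 1248 ± 169 CPM (SD, n = 4) with uLPS and 1247 ± 187 CPM with MRS2578, whereas CX3CR1 and TMEM119, markers of microglia in the intact brain, stayed at or below 2.21 and 0.316 CPM in all libraries. P2RY6, the receptor that MRS2578 blocks, had a level of 72.1 ± 19.2 CPM under uLPS and of 72.8 ± 28.3 CPM after MRS2578. Markers of other cells summed to 224 to 407 CPM for oligodendrocytes, 88.7 to 205 CPM for astrocytes, 158 to 296 CPM for endothelial and mural cells, and at most 1.54 CPM for neurons and 0.518 CPM for lymphocytes, whose marker NKG7 was at 0. Fibroblast markers (5 of 5 measured) summed to 90.2 to 529.6 CPM in 7 libraries and to 1191 CPM in the uLPS library of R14143, which is also the library with the highest level of all 10 ISR transcripts among the uLPS libraries. The MRS2578 library of R14143 was at 430.4 CPM for the same markers. The part of these cells in the ISR levels was not tested, and in bulk RNA fewer cells of a type and less RNA per cell cannot be told apart.

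Per kilobase of annotated exon, which makes levels comparable between genes, ATF4 was the most abundant of the 10 with uLPS, at 234 ± 81.9 CPM per kb (SD, n = 4), and stood above 98% of the 10601 tested genes with a known length. GDF15, a secreted stress cytokine of the TGF-beta family, followed at 157 ± 91.5, and PPP1R15A at 146 ± 25.9 CPM per kb. DDIT4 (REDD1), an inhibitor of mTORC1, was at 78.7 ± 65.4, SESN2, a leucine sensor that also restrains mTORC1, at 50.9 ± 39.4, and the pseudokinase TRIB3 at 30.6 ± 21.6 CPM per kb. DDIT3 was at 25.6 ± 13.4, the glutathione-degrading enzyme CHAC1 at 18.96 ± 13.7, asparagine synthetase (ASNS) at 15.8 ± 7.14 and ATF3 at 7.31 ± 2.97 CPM per kb. In this order, 7 of the 9 steps between neighbours were smaller than the larger SD of the pair. The exceptions were the steps from PPP1R15A to DDIT4 and from ASNS to ATF3, and the ATF3 value is lowered by an exon union of 7.402 kb over transcripts with distant starts. With MRS2578, PPP1R15A came first (220 CPM per kb), ahead of GDF15 (190.4) and ATF4 (143), and CHAC1 came last (5.55).

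ATF4, CHAC1 and DDIT4 had lower levels with MRS2578 in all 4 donors under the deposited labels. ATF4 (chr10:12022095-12024008, minus strand), the transcription factor at the centre of the ISR, was at 427, 448.5, 229 and 590.1 CPM with uLPS in R07110, R12016, R02046 and R14143. With MRS2578 it was at 291, 299, 198 and 247 CPM in the same order of donors. R02046 was lowest in both conditions, and the conditions overlapped only because its uLPS library lay below 3 of the MRS2578 libraries. The ratio of the uLPS to the MRS2578 level was 1.47, 1.5 and 2.39 in R07110, R12016 and R14143 and 1.16 in R02046.

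CHAC1 (chr7:17416607-17420187, plus strand), a target of the ATF4, ATF3 and DDIT3 cascade, had the widest spread of the 10 genes, 17-fold between its highest and lowest library. Its level with uLPS was 39.9, 36.2, 4.70 and 72.0 CPM in R07110, R12016, R02046 and R14143, and with MRS2578 it was 16.8, 18.0, 4.24 and 5.65 CPM. The level in R14143 was 12.7 times as high with uLPS as with MRS2578, and no other of the 12131 genes had a lower log2 difference in that donor (-3.65). In R07110 and R12016 the uLPS level was 2.37 and 2.01 times the MRS2578 level, and in R02046 both libraries were at the bottom of the range, with 44 and 58 reads.

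DDIT4 (chr9:65504516-65506615, minus strand) was at 88.1, 124.5, 46.1 and 316 CPM with uLPS and at 65.7, 89.6, 44.0 and 51.1 CPM with MRS2578, in the order R07110, R12016, R02046 and R14143. Most of the difference between the conditions lay in R14143, where the uLPS level was 6.20 times the MRS2578 level, against 1.34, 1.39 and 1.05 times in the other donors. Across the 3 donors whose labels are not in doubt, these 3 genes were the only members lower in every donor, 30% of the 10, where 19.8% of all tested genes were lower in all 3. None of the 10 was higher in all 3, where 17% of all tested genes were.

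**Figure D1:**
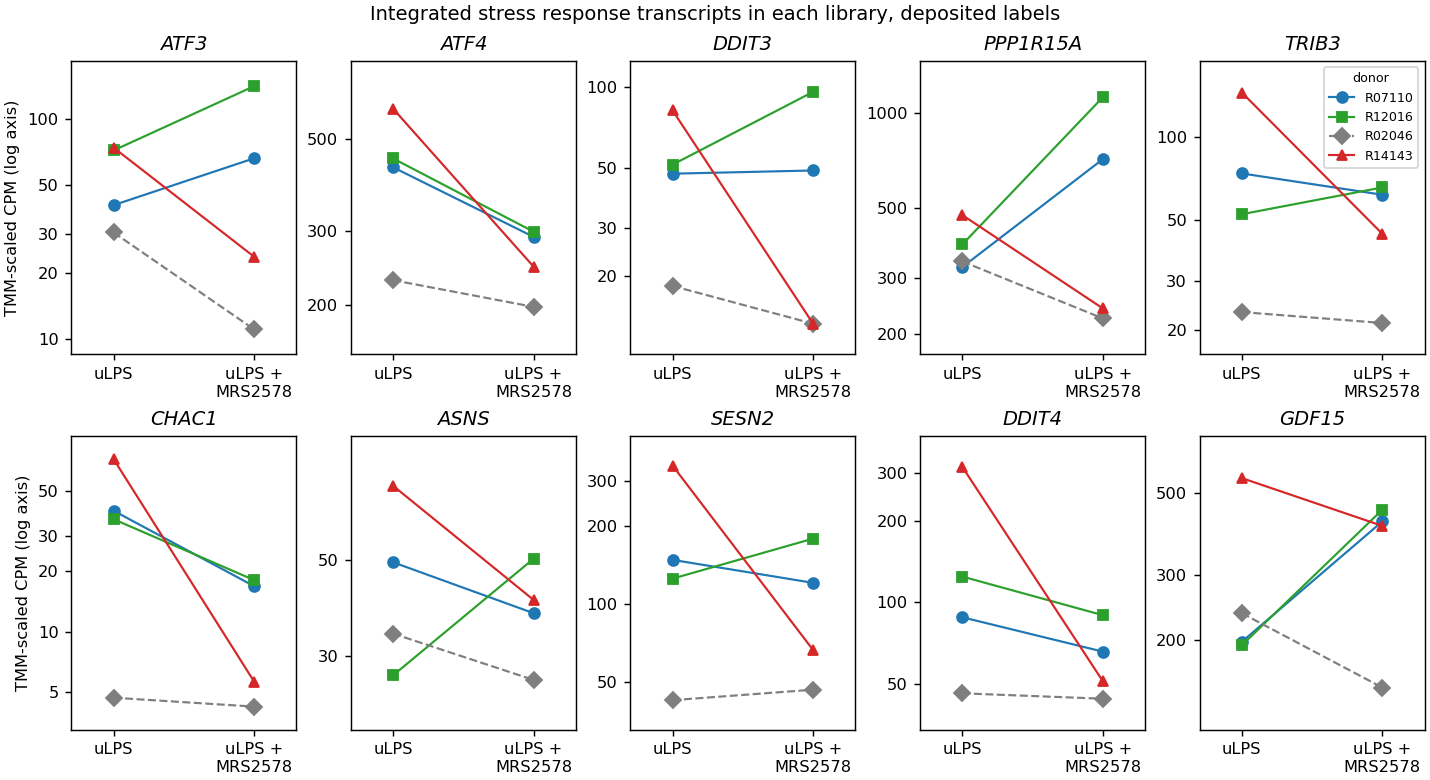
Each panel shows 1 gene, with the TMM-scaled CPM of the 8 libraries on a log axis and a line joining the libraries of 1 donor (R02046 dashed, deposited labels). R14143 is highest of the uLPS libraries in all 10 panels and R12016 is highest of the MRS2578 libraries in all 10.

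In DDIT3, TRIB3, SESN2 and ASNS the donors went different ways. DDIT3 (CHOP; chr11:57091125-57095818, minus strand), a transcription factor linked to cell death under prolonged stress, was at 47.8, 51.6, 18.4 and 82.1 CPM with uLPS and at 49.1, 96.1, 13.3 and 13.3 CPM with MRS2578 in R07110, R12016, R02046 and R14143. It was thus about level between conditions in R07110, 1.86 times as high with MRS2578 in R12016, and 6.17 times as high with uLPS in R14143. Its exons share 149 bases with those of MARS on the opposite strand, and the strand setting of the counting is not given in the sources used here.

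TRIB3 (chr10:66172618-66190818, minus strand), which binds ATF4 and DDIT3 and limits their activity, was at 73.6, 52.4, 23.2 and 145 CPM with uLPS and at 61.6, 65.5, 21.1 and 44.5 CPM with MRS2578. SESN2 (chr1:196437418-196460410, minus strand) was at 148, 125, 42.4 and 344 CPM with uLPS and at 121, 179, 46.5 and 66.3 CPM with MRS2578. For both genes, the R14143 uLPS library was far above the others, R12016 was higher with MRS2578, and R02046 was low in both of its libraries. ASNS (chr3:108300969-108324881, plus strand) was at 49.3, 27.1, 33.8 and 73.9 CPM with uLPS and at 37.7, 50.3, 26.5 and 40.4 CPM with MRS2578, the smallest range of the 10 genes (2.79-fold). R12016, the donor with the lowest ASNS level with uLPS, had the highest with MRS2578.

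ATF3, PPP1R15A and GDF15 had higher levels with MRS2578 in R07110 and R12016 and lower levels in R14143 and, as labelled, in R02046. ATF3 (chr1:70055871-70109651, plus strand), a transcription factor that also responds to TLR4 signals and in macrophages restrains inflammatory genes, was at 40.5, 71.7, 30.4 and 73.9 CPM with uLPS and at 66.1, 140.5, 11.04 and 23.6 CPM with MRS2578. PPP1R15A (chr19:48854619-48858778, plus strand) was at 325, 383, 338 and 474 CPM with uLPS and at 713, 1120, 223 and 240.2 CPM with MRS2578. The uLPS levels of PPP1R15A were the closest of all members, 1.46-fold from lowest to highest donor, while its MRS2578 levels spanned 5.01-fold.

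GDF15 (chr19:17934003-17940572, plus strand) was at 198, 193.5, 236 and 550.5 CPM with uLPS and at 420, 452, 148 and 408 CPM with MRS2578. The level of R14143 with uLPS stood well apart from the other 3 donors, as did that of R02046 with MRS2578 on the low side. In R07110 and R12016, PPP1R15A was 2.2 and 2.92 times, GDF15 2.12 and 2.34 times and ATF3 1.63 and 1.96 times as high with MRS2578. The share of reads from mitochondrial genes was lower with MRS2578 in the same donors, at 0.187% against 0.275% with uLPS in R07110 and at 0.187% against 0.313% in R12016, while it was 0.298% against 0.31% in R02046 and 0.337% against 0.356% in R14143. Its part in these levels was not tested. R07110 and R12016 are the males and R14143 and R02046 the females, so with 2 animals of each sex, sex and individual cannot be told apart. The directions of ATF3, PPP1R15A and GDF15 divide by sex only as labelled. After the exchange R02046 would be higher with MRS2578 for these genes, as the males were, and only R14143 would be lower.

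The 10 genes can also be read donor by donor. With uLPS, R14143 was highest for all 10 genes and R02046 lowest for 7. With MRS2578, R12016 was highest for all 10 and R02046 lowest for 9. The level with uLPS differed between donors by 1.46-fold for PPP1R15A to 15.3-fold for CHAC1.

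Within R14143 all 10 genes were lower with MRS2578, with a median log2 difference of -1.67, where the median of all 12131 genes was -0.03 and their SD 0.50. Within R12016, 7 of the 10 were higher (median 0.70, SD of all genes 0.70), and within R07110 4 were higher and 6 lower (median -0.28, SD of all genes 0.46). Within R02046 as labelled, 9 of the 10 were lower (median -0.28, SD of all genes 0.53), and after the exchange 9 would be higher. Of all tested genes, 50.3% were higher in R07110, 49.8% in R12016, 49.8% in R02046 as labelled and 46.7% in R14143. Fibroblast markers moved in the same direction as the ISR genes in R14143 (1191 CPM with uLPS and 430.4 CPM with MRS2578). In R07110 they were at 149.7 and 232 CPM, in R12016 at 90.2 and 203.5 CPM and in R02046 at 368.5 and 529.6 CPM, so in R02046 as labelled they went the opposite way to most of the 10 genes. The sum of the astrocyte markers was also lower with MRS2578 in R14143, at 204.9 CPM with uLPS and 120.6 CPM with MRS2578. These markers did not move evenly there. The log2 difference was -1.75 for GJA1, -0.85 for GFAP and -0.71 for SLC1A2. It was -0.038 for SLC1A3, -0.065 for AQP4 and -0.175 for ALDH1L1. The sums were 115 and 118 CPM in R07110, 203 and 189.9 CPM in R12016 and 88.7 and 112 CPM in R02046, so the uLPS sums of R14143 and R12016 were close. The part of either marker list in the result was not tested.

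**Figure D2:**
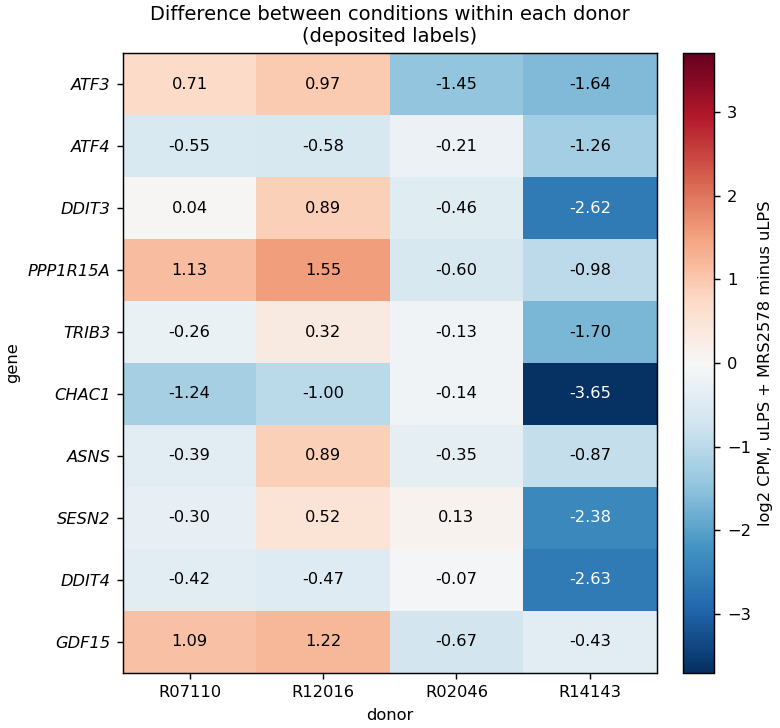
Log2 CPM of uLPS + MRS2578 minus uLPS for each gene (rows) and donor (columns), deposited labels, with red for higher and blue for lower with MRS2578. The column of R14143 is below 0 throughout, from -0.43 for GDF15 to -3.65 for CHAC1, and the rows of ATF4, CHAC1 and DDIT4 are below 0 in all 4 donors.

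Of the variation in log2 CPM over the 8 libraries, the donors took 41.3% (DDIT4) to 72.9% (TRIB3) of the sum of squares. A sum of squares grows with the number of groups, and donors outnumber conditions. A sizeable donor share therefore arises even without a donor effect, and the lower shares are no sign of one. The rest of the variation, where donors differed in their change, is not printed here. The condition took 41.0% for ATF4, 27.4% for CHAC1 and 25.8% for DDIT4, and at most 6.91% for each of the other 7 genes. With the R02046 libraries exchanged, the share of the condition was 28.7% for ATF4, 24.8% for CHAC1 and 24.0% for DDIT4, and it was 23.5% for GDF15 and 15.2% for PPP1R15A. A fit with the donor as a block takes the donor share out.

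In that fit, edgeR's quasi-likelihood test with Benjamini-Hochberg adjustment over all tested genes, none of the 10 genes passed an adjusted p of 0.05, where 0% of all tested genes did, and 2 of the 10 (ATF4 and CHAC1) had an unadjusted p under 0.05, where 5.14% of all tested genes did. The lowest adjusted p of a member was 0.878. The fitted log2 fold change of MRS2578 was -0.65 ± 0.17 (SE) for ATF4, -1.55 ± 0.52 for CHAC1 and -0.86 ± 0.41 for DDIT4. It was within 2 SE of 0 for the other 7 genes, from -0.47 for DDIT3 to 0.30 for GDF15, with a median over the 10 of -0.45 beside -0.01 over all genes. In no member did the levels of the conditions separate without overlap, under the deposited labels or after the exchange, where 1.08% and 2.97% of all tested genes separated.

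With the R02046 libraries exchanged, 0.618% of all tested genes passed and again none of the 10, whose lowest adjusted p was 0.173 in edgeR's quasi-likelihood test. An unadjusted p under 0.05 was then found for 3 members (ATF4, CHAC1 and GDF15), where 16.4% of all tested genes had one. The mean ATF4 level was 416 ± 162 CPM (SD, n = 4) with uLPS and 267 ± 33.9 CPM with MRS2578 in this assignment, and 424 ± 148.5 and 259 ± 46.7 CPM under the deposited labels. The fold changes of GDF15 (0.65 ± 0.25) and PPP1R15A (0.60 ± 0.36) were then higher than those of the deposited labels (0.30 ± 0.35 and 0.28 ± 0.45), and that of ATF3 turned from -0.32 ± 0.49 to 0.39 ± 0.44. Without R02046, 0% of tested genes passed the adjusted threshold and 13.6% had an unadjusted p under 0.05, as 3 of the 10 did (ATF4, CHAC1 and DDIT4), and the lowest adjusted p of a member was 0.166.

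The direction of the list as a whole rested on R14143. Without that donor the median log2 fold change of the 10 genes was 0.08 in place of -0.45 and 6 of the 10 were above 0. DDIT3, SESN2, ASNS and ATF3 then had fitted values of 0.17, 0.11, 0.04 and 0.13. ATF4, CHAC1 and DDIT4 kept their sign without R14143 but were nearer 0, at -0.45 in place of -0.65, -0.86 in place of -1.55 and -0.33 in place of -0.86.

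**Figure D3:**
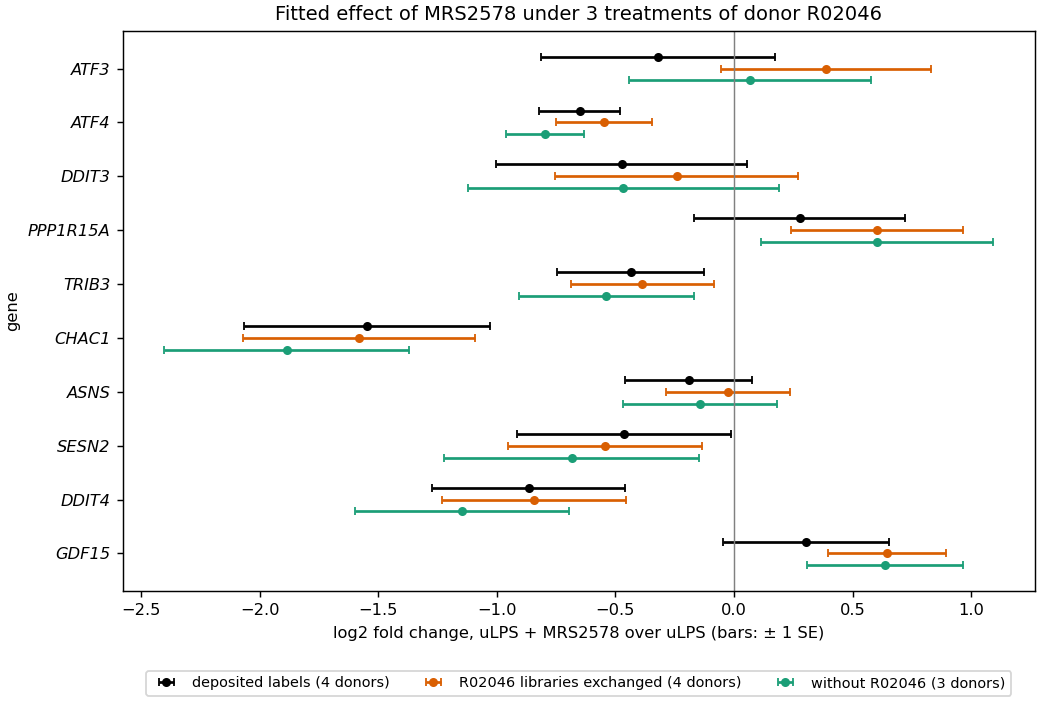
Fitted log2 fold change of uLPS + MRS2578 over uLPS with 1 SE for each gene, under the deposited labels (black), after the exchange of the R02046 libraries (orange) and without R02046 (green). ATF4, CHAC1 and DDIT4 lie below 0 in all 3 fits, PPP1R15A and GDF15 above 0, and ATF3 changes side.

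Over the 8 libraries the 10 genes went up and down together to different degrees. All 45 pairs had a positive Pearson r of log2 CPM, with a median of 0.71, as a description over libraries that share 4 donors. The closest pairs were ATF4 with CHAC1 (r = 0.97) and TRIB3 with SESN2 (r = 0.97). The farthest were ATF4 with PPP1R15A (r = 0.26) and ATF4 with GDF15 (r = 0.30). After each donor's mean was subtracted, 42 of the 45 pairs were above 0, ATF4 and CHAC1 were at 0.98, and ATF4 and GDF15 were at -0.23. Each donor then adds only its difference between conditions, and all 10 genes were lower with MRS2578 in R14143. The positive values therefore partly restate that donor. The share of positive r over all gene pairs was not computed.

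**Figure D4:**
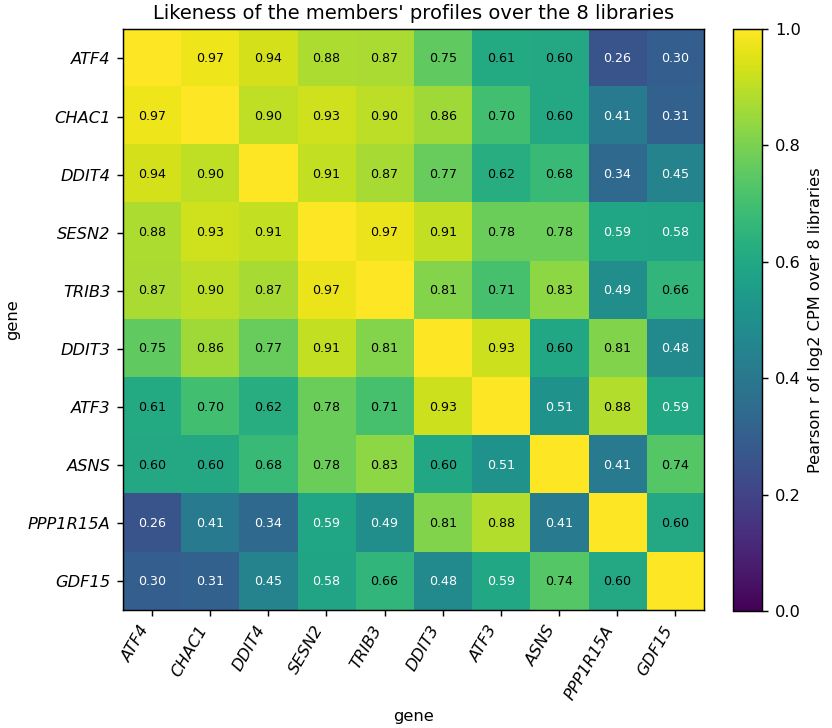
Pearson r between the log2 CPM of each pair of genes over the 8 libraries, with lighter squares for higher r. ATF4, CHAC1, DDIT4, SESN2 and TRIB3 form the lightest block, and the squares of ATF4 with PPP1R15A (0.26) and GDF15 (0.30) are the darkest.

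Outside the list, the 5 genes most like the mean of the standardized members over the 8 libraries were ULK1 (r = 0.96), ZNF467 (0.95), NFIL3 (0.95), STC2 (0.95) and RBM33 (0.94). ULK1 encodes the kinase that starts autophagy, NFIL3 is a basic leucine zipper transcription factor, and STC2 encodes a secreted glycoprotein. Each of the 5 was lower with MRS2578 in R14143, by a log2 difference from -0.38 for RBM33 to -2.34 for STC2. Each was higher in R12016, from 0.07 for RBM33 to 1.19 for NFIL3. The genes were picked for their likeness to the members, so these shared directions restate the choice. In R07110 they ran from -0.35 (STC2) to 0.31 (NFIL3), and in R02046 as labelled from -0.49 (ZNF467) to 0.36 (STC2).

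The sensors of the pathway had fitted log2 fold changes from -0.08 (EIF2AK2) to 0.40 (EIF2AK3), beside -1.55 to 0.30 for the 10 genes. Of the 4 eIF2alpha kinases, EIF2AK3 (PERK), which senses unfolded proteins in the endoplasmic reticulum, was at 23.6 to 33.9 CPM with uLPS and at 31.8 to 45.98 CPM with MRS2578. It was higher with MRS2578 in all 4 donors as labelled, by 0.25, 0.56, 0.33 and 0.43 in R07110, R12016, R02046 and R14143, and its fitted log2 fold change was 0.40 ± 0.11 (SE), with an adjusted p of 0.878 in edgeR's quasi-likelihood test. The exchange of the R02046 libraries gave 0.24 ± 0.15. EIF2AK4 (GCN2), which senses uncharged tRNA, averaged 56.5 ± 6.31 CPM with uLPS, against 59.3 ± 13.3 CPM with MRS2578 (SD, n = 4). EIF2AK1 (HRI), which senses lack of heme, was at 32.5 ± 3.13 and 31.1 ± 3.47 CPM. EIF2AK2 (PKR), which senses double-stranded RNA, was at 129.5 ± 42.2 and 119 ± 18.2 CPM. In R14143, the donor in which all 10 ISR genes were lower, all 4 kinases were higher with MRS2578. The kinase differences there ran from 0.034 (EIF2AK1) to 0.496 (EIF2AK4), each under the SD of all tested genes (0.503). Of all tested genes, 46.7% were higher in that donor.

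Around the kinases, the 7 tested subunits of eIF2 and of its exchange factor eIF2B had fitted log2 fold changes from -0.19 (EIF2S2) to 0.24 (EIF2B2). The 8 regulators of the kinases and of the eIF2 phosphatase ran from -0.38 for NCK1, an adaptor that binds PERK, to 0.18 for DNAJC3, a chaperone that inhibits eIF2 kinases. None of these passed an adjusted p of 0.05 in any of the 3 fits.

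Many other targets of ATF4 were lower in R14143 as well, with list medians nearer 0 than the -1.67 of the 10 genes, a difference that was not tested. All 13 tested targets in a mixed list of ATF4 or DDIT3 targets were lower with MRS2578 in that donor (median -0.30). So were the 8 amino acid transport genes (median -0.85), 7 of 10 amino acid synthesis genes (median -0.60) and all 4 partner transcription factors (median -0.68). Of all tested genes, 46.7% were higher in R14143, beside 3 of the 10 synthesis genes. In R12016 the medians of the same lists were 0.17, 0.30, 0.42 and -0.34, and in R07110 they were 0.04, -0.31, -0.23 and -0.18. In R02046 as labelled they were -0.18, 0.20, -0.23 and 0.23, so the transport genes and partner factors went against the 10 genes there.

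Over all donors under the deposited labels, no gene of these lists passed. The fitted log2 fold changes ran from -0.56 (SLC1A4) to 0.12 (SLC6A9) for transport, from -0.67 (MTHFD2) to 0.11 (ALDH1L2) for synthesis, from -0.45 (CEBPB) to -0.11 (JDP2) for the partner factors and from -1.11 (ADM2) to 0.52 (SQSTM1) for the mixed list. MTHFD2, the mitochondrial one-carbon enzyme, averaged 336 ± 157 CPM with uLPS, against 199 ± 52.1 CPM with MRS2578 (SD, n = 4). With the R02046 libraries exchanged, 1 of the 94 tested genes of the pathway lists passed (1.06%), near the 0.618% of all tested genes, so the call is no result about these lists. The gene was SLC1A4, a carrier of alanine, serine and cysteine, with a fitted value of -0.78 ± 0.10 (SE) and an adjusted p of 0.0351 in edgeR's quasi-likelihood test, and without R02046 its fitted value was -0.88 with an adjusted p of 0.121. Its log2 differences in the 3 donors with undisputed labels were -0.87 (R07110), -0.96 (R12016) and -0.81 (R14143).

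The 13 cytosolic aminoacyl-tRNA synthetases, many of them ATF4 targets, kept close to 0, from -0.33 (WARS1) to 0.03 (IARS1). Of these, 12 had a fitted value below 0, where 6322 of all 12131 tested genes did. In all 3 donors with undisputed labels, 5 of the 13 (38.5%) were lower, against 19.8% of all tested genes.

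Neighbouring stress programmes had other patterns over the donors. The 12 tested targets of HSF1, the regulator of the heat shock response, were all higher with MRS2578 in R07110 (median log2 difference 2.78) and in R12016 (3.61), while the ISR genes had medians of -0.28 and 0.70 there. In R14143, 9 of the 12 were higher (median 0.44), while all 10 ISR genes were lower. In R02046 as labelled all 12 were lower (median -1.003). Their fitted values ran from 0.05 (HSPE1) to 2.62 (DNAJA4) under the deposited labels, and DNAJA4 was at 3.73 after the exchange and 4.03 without R02046. The list's median fitted value was 1.43, 2.11 and 2.35 in the same order of fits. None passed the adjusted threshold in any of the 3, while an unadjusted p under 0.05 was found for 1, 10 and 10 of the 12, beside the shares of all tested genes given above (5.14%, 16.4% and 13.6%).

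The 15 endoplasmic reticulum chaperones and related genes, which are driven by the ATF6 and IRE1 branches of the unfolded protein response, were higher in 14 cases in R07110 and in R12016 (medians 0.44 and 0.64) and in 10 in R14143 (median 0.10). They were lower in 12 cases in R02046 as labelled (median -0.33). HSPA5 (BiP), the main chaperone of that compartment, had the highest fitted value (1.00 ± 0.56, SE), which was 1.32 ± 0.38 after the exchange and 1.57 ± 0.48 without R02046. XBP1, a transcription factor of the IRE1 branch, had the lowest (-0.21 ± 0.12). None of the 15 passed the adjusted threshold in any of the 3 fits, and an unadjusted p under 0.05 was found for 0 with the deposited labels, 11 after the exchange and 10 without R02046, where 5.14%, 16.4% and 13.6% of all tested genes had one. Of these genes 66.7% were higher in all 3 undisputed donors, against 17% of all tested genes and 0 of the 10 ISR genes.

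**Figure D5:**
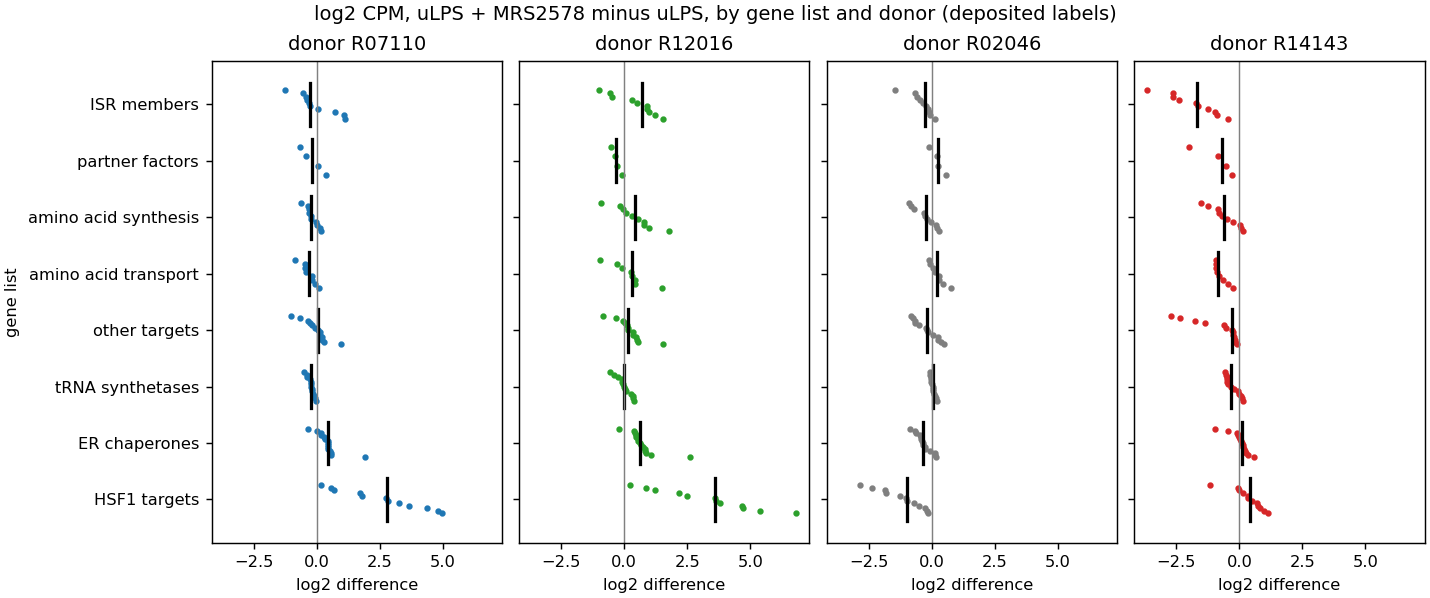
Log2 CPM of uLPS + MRS2578 minus uLPS in each donor for the tested genes of 8 lists, with 1 point per gene and a black bar at the median (deposited labels). The ISR genes lie furthest left in R14143 (median -1.67), where the HSF1 targets have a median of 0.44, and the HSF1 targets lie furthest right in R12016 (median 3.61).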

How the data were processed

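RNA of the 8 cultures was made into directional poly(A) libraries and sequenced by the authors. They deposited whole-number counts of reads per Ensembl gene, without normalization. Their paper names fastp, STAR, SAMtools and HTSeq, whereas the submitters' processing notes name Trimmomatic 0.30, TopHat2 2.0.14, SAMtools 1.3 and HTSeq 0.6.1p1. Both give Mmul_10, the files do not settle which was run, and the aligner could change counts of genes with near-identical copies. The strand setting and the annotation release are not given in the sources used here.

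Counts were analysed in R 4.3.3 with edgeR 4.0.16. Genes were kept by filterByExpr (minimum count 10), libraries were scaled by TMM, and the quasi-likelihood test was fitted with donor as a blocking term, with Benjamini-Hochberg adjustment over all tested genes. A prior count of 2 was used for log2 CPM. Blocking follows from the design, as a donor's libraries come from 1 animal, and their deviations from the condition means correlated at 0.602, 0.552, 0.458 and 0.562 in R07110, R12016, R02046 and R14143. No library was a copy of another. The fit was also run on simulated counts with a dispersion of 0.05 and no differences between donors. That run cannot show how the fit performs where donors differ, as they do here.

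The members, the gene lists and the cell type markers were chosen with earlier results of these data known, so none of their patterns is independent support. Named genes are the 10 members, the 4 eIF2alpha kinases, the gene with the highest and the lowest fitted value of each other pathway list, any listed pathway gene with an adjusted p under 0.05 in 1 of the 3 fits, and the 5 genes most like the members. STC2 is also a gene of the mixed target list. MTHFD2 and HSPA5 come under the rule of highest and lowest values. P2RY6, the cell type markers CSF1R, CX3CR1, TMEM119 and NKG7, the astrocyte markers, and MARS were named outside this rule. Exon lengths, positions and sequences come from the RefSeq annotation of Mmul_10 and were matched by symbol. Protein sequences were not used here.

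Alternatives were DESeq2 1.42.0 size factors and Wald test, edgeR's likelihood ratio test, other filters on low counts, no block, the exchange of the R02046 libraries, each donor left out, CPM without TMM and a prior count of 0.25. Unexposed, RT-PCR, ELISA and TUNEL measurements were not analysed here.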

Additional observations from a re-analysis of the deposited data

Results flagged for a closer look

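GDF15 stood apart within a condition in 2 libraries. With uLPS, donor R14143 was at 550.5 CPM, and with MRS2578, donor R02046 was at 148.4 CPM. In each case the gap to the nearest of the other 3 donors exceeded the critical share, by Dixon's test, of the whole range of the 4 libraries. Among the 20 groups examined, 10 genes in 2 conditions, these were the only 2, and chance alone marks about 1 in 20 groups. The first comes from the library with the highest fibroblast markers (1191 CPM) and the second from the donor with disputed labels. The part of either in the result was not tested.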

How the results depend on the processing

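None of the 10 genes had an adjusted p under 0.05 in the fit with the deposited labels or in any of the 13 other fits. Over all genes the count was 0 with the deposited labels, 1 with DESeq2's Wald test, 5 with edgeR's likelihood ratio test and 75 with the R02046 libraries exchanged (the cause was not tested), and 0 in the others. Without the replicate block, 0 genes passed and the members' median log2 fold change was -0.43, beside -0.45 with it. With each donor left out, the median ran from -0.74 (without R12016) to 0.08 (without R14143), and 0 genes passed. Of 130 alternative fold changes of members, 130 stayed within 1 SD of the within-donor differences. That SD, over 4 donors, ran from 0.437 (ATF4) to 1.502 (CHAC1). Leaving out 1 donor or changing a setting could hardly exceed it, so this count is no sign of stability. Of the 130, 11 took the other sign. These were ATF3 in 5 fits, PPP1R15A without R07110 (-0.05) or R12016 (-0.16), GDF15 without R12016 (-0.01), and DDIT3, ASNS and SESN2 without R14143. ATF4, CHAC1, DDIT4 and TRIB3 were below 0 in every fit. A prior count of 0.25 moved a within-donor difference by at most 0.02. edgeR's earlier quasi-likelihood estimation and the exchange without a block were added after seeing the data. Depth limited CHAC1 most, at 44 reads in the smallest library.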
